A study of Mus musculus with 30 samples.

Results

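The stem-like and memory T cell genes described here were Tcf7, Lef1, Id3, Slamf6, Cd27 and Bcl2, 6 of the 39676 genes with a row of counts, chosen by name as genes that mark T cells able to renew themselves or persist. All 6 averaged 10 or more counts per tumor, as did 15926 genes in all, which were tested. RNA was sequenced from whole subcutaneous B16 melanomas 8 days after inoculation, with 10 tumors each of the types labelled B16-GFP, B16-IFNA4 and B16-IFNA9. B16-IFNA4 and B16-IFNA9 arose from B16-F10 cells, a melanoma line of C57BL/6 mice, that carried a retroviral vector with murine IFNα4 or IFNα9 and enhanced GFP behind the viral long terminal repeat promoter, and B16-GFP tumors carried the vector without an interferon. All 3 lines also carried glycoprotein B of herpes simplex virus with cyan fluorescent protein, and luciferase with a puromycin resistance gene, so both are present in the controls too. The hosts were female C57BL/6 mice, which the study typically used at 8 to 12 weeks of age. The labels give each tumor as a biological replicate and do not say whether mice were inoculated on separate days. Melanoma cells were thus the source of the interferon, and the RNA came from them and from every host cell in the tumor.

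Tcf7 encodes TCF1 and Lef1 its relative LEF1, transcription factors that bind the same short DNA motif, act with β-catenin or repress without it, and hold naive, memory and stem-like exhausted T cells in a state that can still divide. Id3 encodes an inhibitor that binds E proteins and keeps them from DNA, and it is high in memory precursor T cells. Slamf6 (Ly108) and Cd27 are surface receptors of lymphocytes, the first of the SLAM family and the second a costimulatory receptor of the TNF receptor family, and Bcl2 blocks mitochondrial cell death. None of them is confined to T cells: Lef1 acts in the hair follicle, Id3 in endothelial cells and keratinocytes, Cd27 and Slamf6 also in NK and B cells, and Bcl2 in many cells including melanocytes.

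Tumors held 14598517 to 19788383 counts each, and TMM scaling factors ran from 0.768, in B16-GFP tumor 7, to 1.10. Counts of Ifna4 ran from 81 to 188 in B16-IFNA4 tumors, and counts of Ifna9 from 55 to 148 in B16-IFNA9 tumors, in keeping with the labels. All 9 melanocyte marker genes had counts in every tumor. Of 18 T cell marker genes at least 16 had counts in every B16-GFP tumor and all 18 in every other tumor. In 6 tumors the hair follicle keratin gene Krt71 reached 100 counts or more, namely B16-GFP tumors 1 and 2 and B16-IFNA9 tumors 3, 4, 5 and 6, with 388 to 71362 counts, while each of the other 24 had at most 84. These 6 tumors stood apart in hair follicle genes and are called hair keratin tumors. The threshold was set after the counts were seen, and values without these tumors are given beside most results that changed when they were left out.

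3 patterns appeared among the 6 genes. Cd27, Slamf6 and Tcf7 were higher in both interferon-expressing tumor types than in B16-GFP tumors. Bcl2 rose and Id3 fell in B16-IFNA9 compared with B16-GFP tumors, calls that were lost when single tumors were left out. Lef1 passed no test over all 30 tumors without a covariate, and its result depended on tumors with hair follicle genes. In the comparison of B16-IFNA4 with B16-GFP tumors, 3 of the 6 genes rose and 0 fell (edgeR quasi-likelihood test, Benjamini-Hochberg adjusted p under 0.05 over all genes tested), where 31.3% of all genes tested rose and 34.1% fell. In B16-IFNA9 compared with B16-GFP tumors, 4 rose and 1 fell, where 26.9% of all genes rose and 28.9% fell. In B16-IFNA9 compared with B16-IFNA4 tumors, 0 rose and 2 fell, where 10.5% of all genes rose and 7.25% fell. The median log2 fold changes of the 6 genes were 0.66, 0.56 and -0.38 in these comparisons, against 0.01, 0.00 and -0.01 over all genes tested. Without the hair keratin tumors the Lef1 values that enter these medians were 2.09, 1.48 and -0.61. The medians therefore depend on those tumors, and medians without them are not given here. Both comparisons with B16-GFP use the same 10 control tumors.

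**Figure D1:**
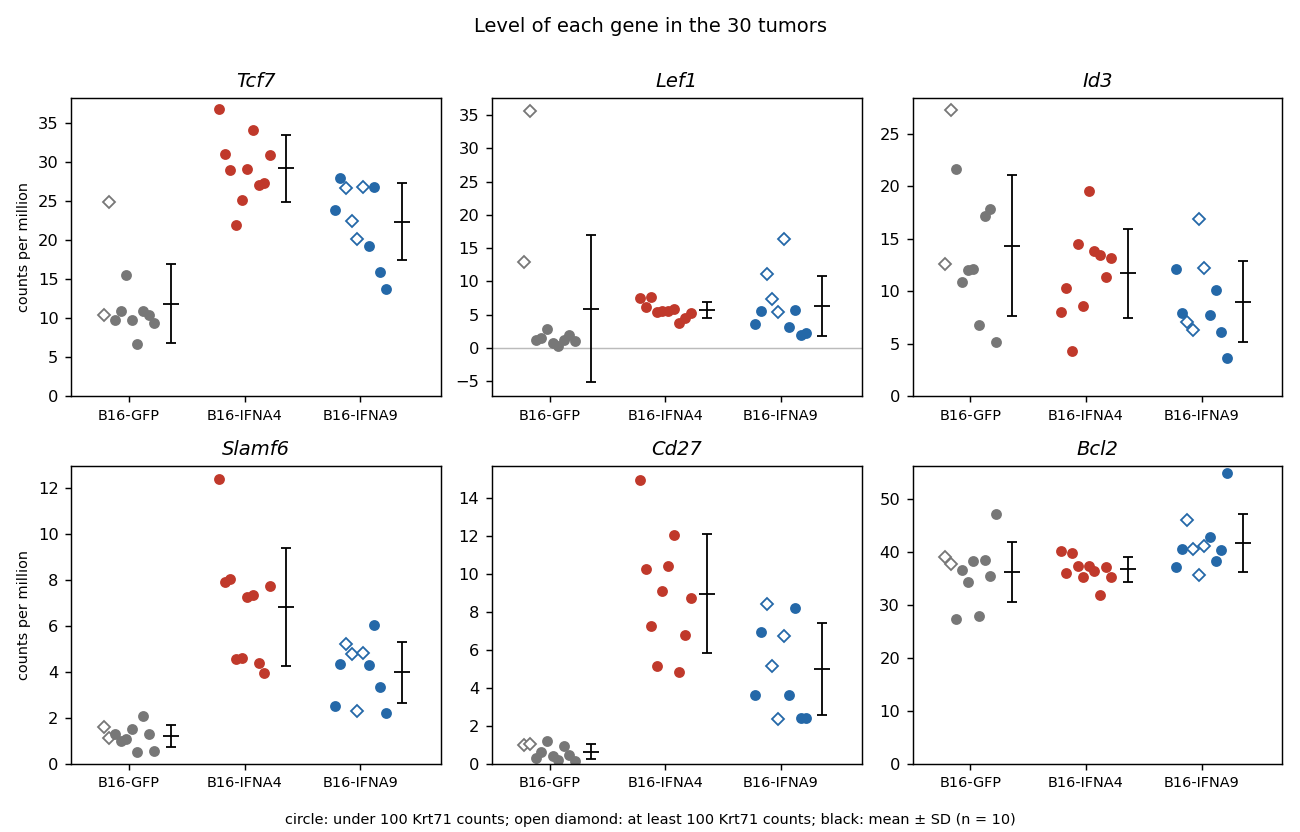
Level of each of the 6 genes in every tumor, as counts scaled to library size (CPM) on a linear axis, with 1 point per tumor and the mean ± SD of each type in black (n = 10). Open diamonds are the 6 hair keratin tumors. Cd27 and Slamf6 separate the interferon-expressing types from B16-GFP, and the highest Lef1 levels are in hair keratin tumors.

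Stretches upstream of the receptor genes that did not overlap between B16-GFP and the interferon-expressing tumors, Cd27 and Slamf6, and of one Lef1 start are given because these genes carry the clearest differences and the clearest dependence on single tumors. Of the 4 Lef1 windows, the internal start shown was taken because it alone held a searched motif. They are the 250 bases before a RefSeq start (assembly GRCm38.p6), written 5′ to 3′ in the direction of the gene, with matches to 3 searched motifs in capitals. The windows searched also held the 50 bases after each start. The interferon response motif was searched as GAAANNGAA, the STAT motif as TTCNNNGAA and the motif of TCF1 and LEF1 as CTTTGA, each on both strands, with no overlap between matches.
Cd27, chr6:125237028-125237277, minus strand: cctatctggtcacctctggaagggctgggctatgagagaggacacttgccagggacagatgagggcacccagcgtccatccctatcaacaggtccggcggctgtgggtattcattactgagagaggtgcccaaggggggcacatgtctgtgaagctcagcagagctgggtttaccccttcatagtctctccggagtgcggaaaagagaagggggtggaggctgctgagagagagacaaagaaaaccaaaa
Slamf6, chr1:171917212-171917461, plus strand: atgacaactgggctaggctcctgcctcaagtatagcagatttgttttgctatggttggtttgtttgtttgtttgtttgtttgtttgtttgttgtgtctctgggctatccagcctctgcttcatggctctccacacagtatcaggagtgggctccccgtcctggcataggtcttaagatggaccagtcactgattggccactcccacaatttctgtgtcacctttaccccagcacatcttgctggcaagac
Lef1, chr3:131156044-131156293, plus strand: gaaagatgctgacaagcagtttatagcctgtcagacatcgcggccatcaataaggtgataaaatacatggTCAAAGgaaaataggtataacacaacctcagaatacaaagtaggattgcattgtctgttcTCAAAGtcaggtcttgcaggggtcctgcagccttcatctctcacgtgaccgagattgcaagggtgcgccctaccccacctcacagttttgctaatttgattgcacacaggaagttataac
No window of the 6 genes, 10 in all, held the interferon response or the STAT motif, which 8.56% and 8.3% of all 32851 RefSeq windows held. The TCF1 and LEF1 motif occurred in 2 of the 10 windows, against 16% of all windows. The Lef1 window above held it at 2 places, and the Cd27 window held it after the start, outside the bases printed. These matches describe letters in a window and do not show binding.

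Cd27 (chr6:125232622-125237010, minus strand) had the largest fold changes of the 6 genes against B16-GFP. Coordinates of genes are those of GENCODE M21 on GRCm38. In B16-GFP tumors its level in CPM, here scaled by TMM, ran from 0.126 to 1.21 CPM with a median of 0.536 CPM, in B16-IFNA4 tumors from 4.84 to 14.9 CPM with a median of 8.92 CPM, and in B16-IFNA9 tumors from 2.37 to 8.40 CPM with a median of 4.41 CPM. Every tumor of both interferon-expressing types lay above every B16-GFP tumor, as happened for 18.5% of all genes in either direction between B16-IFNA4 and B16-GFP and for 7.79% between B16-IFNA9 and B16-GFP. The mean rose from 0.635 ± 0.393 CPM (SD, n = 10) to 8.95 ± 3.13 CPM and 4.98 ± 2.42 CPM. The log2 fold change against B16-GFP was 3.76 (SE 0.34, edgeR adjusted p = 7.01e-11) in B16-IFNA4 and 2.92 (SE 0.33, edgeR adjusted p = 2.11e-08) in B16-IFNA9 tumors. B16-IFNA9 tumors were lower than B16-IFNA4 tumors by a log2 fold change of -0.84 (SE 0.29, edgeR adjusted p = 0.0385), with overlapping levels. That last call held in 18 of the 30 fits that left out 1 tumor. In the other 12 fits the adjusted p reached up to 0.082, each time after leaving out a B16-IFNA4 or B16-IFNA9 tumor. The B16-GFP values rest on 2 to 22 counts per tumor, and 5.54% of the Cd27 exons overlap the microRNA gene Mir8113.

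Slamf6 (chr1:171917515-171953170, plus strand) followed the same order with smaller differences. Its level ran from 0.536 to 2.09 CPM in B16-GFP tumors, with a median of 1.21 CPM. It ran from 3.96 to 12.4 CPM in B16-IFNA4 tumors (median 7.30 CPM) and from 2.22 to 6.05 CPM in B16-IFNA9 tumors (median 4.34 CPM). No tumor of either interferon-expressing type overlapped B16-GFP, and the means were 1.21 ± 0.47 CPM, 6.82 ± 2.57 CPM and 4.00 ± 1.33 CPM (SD, n = 10). The log2 fold change against B16-GFP was 2.47 (SE 0.24, edgeR adjusted p = 6.05e-10) in B16-IFNA4 and 1.7 (SE 0.24, edgeR adjusted p = 1.15e-06) in B16-IFNA9 tumors. The difference between B16-IFNA9 and B16-IFNA4 was -0.77 (SE 0.23, edgeR adjusted p = 0.0159) and was called in all 30 fits that left out 1 tumor, with the highest adjusted p at 0.0433. Among the 6 genes, Cd27 and Slamf6 were the pair without overlap against B16-GFP. None of the 6 was without overlap between B16-IFNA9 and B16-IFNA4 tumors, where 2.83% of all genes did.

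Tcf7 (chr11:52252371-52283014, minus strand) rose in both interferon-expressing types, with B16-GFP tumors 2 and 5 inside the B16-IFNA9 range. In B16-GFP tumors it ran from 6.61 to 24.9 CPM with a median of 10.4 CPM, in B16-IFNA4 tumors from 21.9 to 36.8 CPM with a median of 29.0 CPM, and in B16-IFNA9 tumors from 13.7 to 28.0 CPM with a median of 23.2 CPM. The highest B16-GFP value was that of tumor 2, which also had the most Krt71, and 9 of the 10 B16-IFNA4 tumors lay above all B16-GFP tumors. The means were 11.8 ± 5.07 CPM, 29.2 ± 4.30 CPM and 22.4 ± 4.98 CPM (SD, n = 10). The log2 fold change against B16-GFP was 1.30 (SE 0.17, edgeR adjusted p = 1.16e-07) in B16-IFNA4 and 0.91 (SE 0.17, edgeR adjusted p = 4.24e-05) in B16-IFNA9 tumors. Without the hair keratin tumors these were 1.48 and 1.04. Between B16-IFNA9 and B16-IFNA4 tumors the log2 fold change of -0.39 (SE 0.17) did not pass the test (edgeR adjusted p = 0.105), but it passed without B16-GFP tumor 2 (edgeR adjusted p = 0.0339) and in a fit of the 20 tumors compared (edgeR adjusted p = 0.0165). Without the 6 hair keratin tumors it was -0.44 and did not pass (edgeR adjusted p = 0.0562), and with the hair follicle covariate it was -0.53 and passed (edgeR adjusted p = 0.00715).

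**Figure D2:**
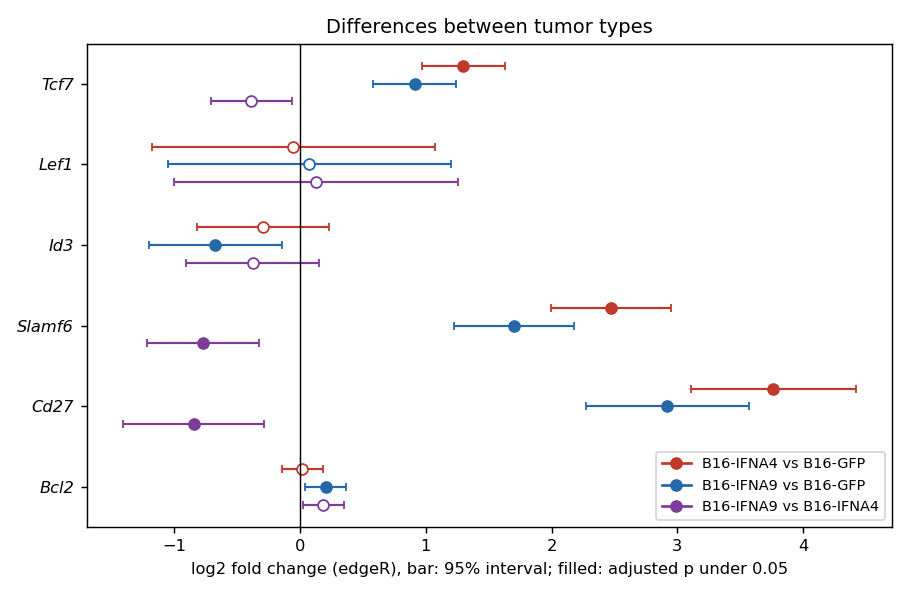
Log2 fold change of each gene in the 3 comparisons (edgeR, all 30 tumors), with the 95% interval as a bar and filled points where the adjusted p was under 0.05. Cd27, Slamf6 and Tcf7 lie above 0 in both comparisons with B16-GFP, and the Lef1 intervals span 0 widely.

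Lef1 was the gene most affected by single tumors. In B16-GFP tumors it ran from 0.268 to 35.6 CPM with a median of 1.32 CPM, in B16-IFNA4 tumors from 3.80 to 7.59 CPM with a median of 5.55 CPM, and in B16-IFNA9 tumors from 2.02 to 16.4 CPM with a median of 5.44 CPM. The median was lowest in B16-GFP tumors, while the means of 5.89 ± 11.1 CPM, 5.73 ± 1.18 CPM and 6.25 ± 4.49 CPM (SD, n = 10) lay within the spread of each other. The log2 fold changes were -0.05 for B16-IFNA4 and 0.08 for B16-IFNA9 against B16-GFP, with edgeR adjusted p values of 0.942 and 0.917, and 0.13 between the interferon-expressing types (edgeR adjusted p = 0.909). Lef1 (chr3:131110471-131224356, plus strand) had its counts concentrated in single tumors. B16-GFP tumors 1 and 2 held 235 and 665 of the Lef1 counts, while the other 8 held 3 to 51. The highest Lef1 counts among B16-IFNA9 tumors, 311, 189 and 138, were in tumors 6, 3 and 4, all of them hair keratin tumors. The summed level of 18 hair follicle markers ran from 6.97 to 14826 CPM in B16-GFP, 23.5 to 38.1 CPM in B16-IFNA4 and 10.9 to 1668 CPM in B16-IFNA9 tumors.

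Without the 6 hair keratin tumors, Lef1 ran from 0.268 to 2.81 CPM in the 8 remaining B16-GFP tumors, from 3.80 to 7.59 CPM in the 10 B16-IFNA4 tumors and from 2.02 to 5.72 CPM in the 6 remaining B16-IFNA9 tumors. The B16-IFNA4 tumors then did not overlap B16-GFP, as held for 22.7% of all genes in this smaller set, while B16-IFNA9 tumors overlapped B16-GFP, where 15.7% of all genes did not. The means were 1.31 ± 0.78 CPM (SD, n = 8), 5.73 ± 1.18 CPM (n = 10) and 3.69 ± 1.59 CPM (n = 6). The log2 fold change against B16-GFP was then 2.09 (SE 0.28, edgeR adjusted p = 7.36e-07) in B16-IFNA4 and 1.48 (SE 0.31, edgeR adjusted p = 4.09e-04) in B16-IFNA9 tumors. In this fit 65% of all genes were called in the comparison of B16-IFNA4 with B16-GFP, 51.1% in that of B16-IFNA9 with B16-GFP and 16% in that of B16-IFNA9 with B16-IFNA4. With the hair follicle level as a covariate over all 30 tumors, the log2 fold changes were 2.01 (edgeR adjusted p = 2.01e-07) and 1.19 (edgeR adjusted p = 2.02e-04). In that fit Lef1 was also lower in B16-IFNA9 than in B16-IFNA4 tumors, at -0.81 (edgeR adjusted p = 0.0158), whereas the difference of -0.61 without the hair keratin tumors did not pass (edgeR adjusted p = 0.151). The fit with the covariate called 66.9%, 56.4% and 20.1% of all genes in the 3 comparisons. Leaving out B16-GFP tumor 2 alone also gave calls, at 1.12 in B16-IFNA4 (edgeR adjusted p = 0.0354) and 1.25 in B16-IFNA9 tumors (edgeR adjusted p = 0.0238) against B16-GFP. Tumors were left out on their Krt71 counts, not on Lef1, but the threshold was added after the data were seen. Part of the Lef1 exons, 13.7%, overlaps the antisense gene Gm43352, which had 0 to 5 counts per tumor.

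**Figure D3:**
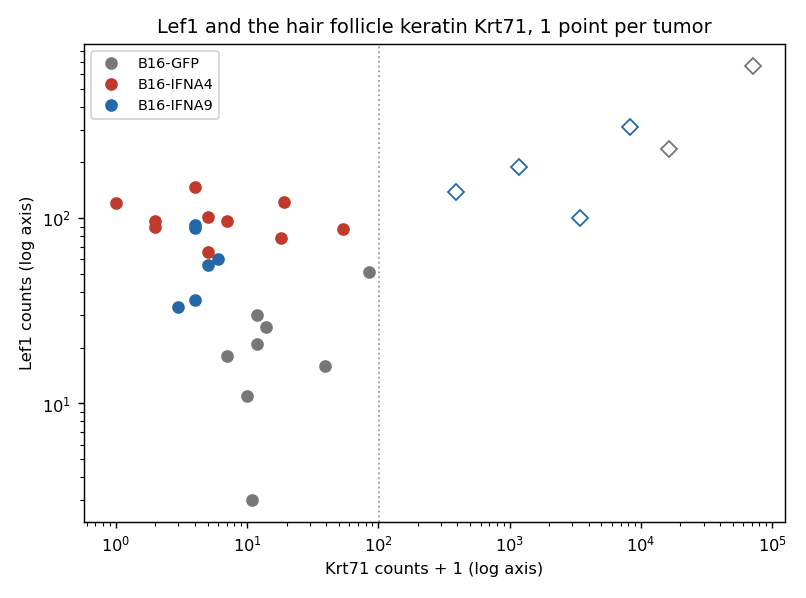
Lef1 counts against Krt71 counts plus 1, both on log axes, with 1 point per tumor. Open diamonds right of the dotted line are the 6 hair keratin tumors, which hold the highest Lef1 counts of B16-GFP and of B16-IFNA9 tumors. Left of the line, B16-IFNA9 tumors overlap both other types, with B16-GFP tumors mostly lower and B16-IFNA4 tumors mostly higher.

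After centring within each type, Lef1 correlated over the 30 tumors with the mean level of the hair follicle list at r = 0.894 and with the T cell list at r = 0.546. The genes most like Lef1 in this respect were Hoxc13 (r = 0.932), Dlx3 (r = 0.927) and Plekhg1 (r = 0.922), the first pair of which are hair follicle transcription factors on that list. For Cd27 the T cell list gave r = 0.813 and the hair follicle list 0.392, and for Slamf6 they gave 0.755 and 0.155. The NK cell list was nearly as close, at 0.762 for Cd27 and 0.716 for Slamf6, and the myeloid list gave 0.682 for Slamf6. Tcf7 lay between, with 0.716 for the T cell list and 0.577 for the hair follicle list. Its values for the NK cell and keratinocyte lists, 0.595 and 0.56, were close to the latter. Over the 24 tumors without the hair keratin tumors, Lef1 gave 0.566 with the hair follicle list and 0.772 with the T cell list, and Tcf7 gave 0.622 and 0.85. Other lists were about as close to Lef1 over these 24 tumors, with 0.748 for myeloid cells, 0.741 for NK cells and 0.651 for keratinocytes. For Tcf7 they gave 0.73 for NK cells, 0.683 for keratinocytes and 0.655 for plasmacytoid dendritic cells. The points share library, depth and tumor composition, so these are descriptions. The genes most like Cd27 were Sh2d2a (r = 0.883), Apol7b (r = 0.853) and Itgal (r = 0.844). Klhl6 (r = 0.801), Fyb (r = 0.789) and again Sh2d2a (r = 0.784) were most like Slamf6, whereas Mxd1 (r = 0.824), Sox9 (r = 0.82) and Rnf43 (r = 0.819) were most like Tcf7. Among the 6 genes themselves, the closest pairs were Tcf7 with Lef1 (r = 0.772), Tcf7 with Cd27 (r = 0.771) and Slamf6 with Cd27 (r = 0.753), and over those 24 tumors these were 0.827, 0.834 and 0.739.

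Id3 (chr4:136143497-136145755, plus strand) did not rise in any comparison. It ran from 5.12 to 27.3 CPM in B16-GFP tumors (median 12.4 CPM), from 4.26 to 19.6 CPM in B16-IFNA4 tumors (median 12.2 CPM) and from 3.63 to 16.9 CPM in B16-IFNA9 tumors (median 7.84 CPM). All 3 types overlapped. The mean of 14.3 ± 6.74 CPM in B16-GFP compared with 11.7 ± 4.22 CPM in B16-IFNA4 (log2 fold change -0.30, SE 0.27, edgeR adjusted p = 0.333) and 9.00 ± 3.87 CPM in B16-IFNA9 tumors (log2 fold change -0.67, SE 0.27, edgeR adjusted p = 0.0346). The call in B16-IFNA9 tumors was lost in 10 of the 30 fits that left out 1 tumor, with an adjusted p up to 0.0931 without B16-GFP tumor 2. It was also lost without the hair keratin tumors (edgeR adjusted p = 0.0643), without B16-GFP tumors 1 and 2 (0.11), with library totals in place of TMM (0.0815) and with the replicate number as a block (0.0519). Within types, Id3 correlated with the endothelial list at r = 0.602 and the keratinocyte list at r = 0.594, against 0.319 for the T cell list. The summed endothelial markers ran from 462 to 807 CPM in B16-GFP, 436 to 599 CPM in B16-IFNA4 and 297 to 489 CPM in B16-IFNA9 tumors, with 11 of 11 detected in every tumor. The summed keratinocyte markers, 10 of 10 detected in every tumor, ran from 1305 to 9471 CPM in B16-GFP, 8674 to 12767 CPM in B16-IFNA4 and 2831 to 10797 CPM in B16-IFNA9 tumors, with medians lowest in B16-GFP, where the Id3 mean was highest. The part of either list in the Id3 difference was not tested. The genes most like Id3 were Gm7850 (r = 0.938), Prdx5 (r = 0.911) and Rnf208 (r = 0.91).

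Bcl2 (chr1:106538178-106714274, minus strand) was nearly level across the types. It ran from 27.4 to 47.1 CPM in B16-GFP tumors (median 37.1 CPM), from 31.9 to 40.2 CPM in B16-IFNA4 tumors (median 36.7 CPM) and from 35.6 to 54.8 CPM in B16-IFNA9 tumors (median 40.5 CPM). The means were 36.2 ± 5.67 CPM, 36.6 ± 2.37 CPM and 41.7 ± 5.45 CPM (SD, n = 10). The log2 fold change was 0.02 in B16-IFNA4 (95% interval -0.14 to 0.18, edgeR adjusted p = 0.861) and 0.20 in B16-IFNA9 tumors against B16-GFP (SE 0.08, edgeR adjusted p = 0.0365). The small rise in B16-IFNA9 tumors was lost in 7 of the 30 fits that left out 1 tumor, with an adjusted p up to 0.0928, without the filter on low counts and in a fit of the 20 tumors compared. The genes most like Bcl2 within types were S100pbp (r = 0.903), Asxl2 (r = 0.902) and Uprt (r = 0.886). Its exons overlap the antisense gene D630008O14Rik over 6.09% of their length, which had 0 to 2 counts per tumor.

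Per kilobase of exon, the order of the 6 genes changed between tumor types. In B16-GFP tumors Id3 was highest at 8.01 ± 3.76 CPM per kb, followed by Tcf7 at 4.51 ± 1.93 and Bcl2 at 3.95 ± 0.62 CPM per kb. In B16-IFNA4 tumors Tcf7 was highest at 11.1 ± 1.64 CPM per kb, followed by Id3 at 6.53 ± 2.36, Bcl2 at 4.00 ± 0.26 and Cd27 at 3.84 ± 1.35 CPM per kb. In B16-IFNA9 tumors the order was Tcf7 at 8.52 ± 1.90, Id3 at 5.03 ± 2.16, Bcl2 at 4.55 ± 0.60 and Cd27 at 2.14 ± 1.04 CPM per kb. Within 1 SD, Id3, Tcf7 and Bcl2 overlapped each other in B16-GFP tumors, and Id3, Bcl2 and Cd27 did so in B16-IFNA4 tumors, where Tcf7 stood clear of the rest. In B16-IFNA9 tumors Id3 overlapped Tcf7, Bcl2 and Cd27. Lef1 and Slamf6 were the lowest genes in both interferon-expressing types, with means from 0.369 to 0.711 CPM per kb. Slamf6 was lowest in B16-GFP tumors at 0.112 ± 0.043 CPM per kb, and Cd27 was next at 0.273 ± 0.169 CPM per kb, below Lef1 at 0.670 ± 1.26 CPM per kb. Without the hair keratin tumors Lef1 was below Cd27 in B16-GFP tumors, at 0.149 ± 0.089 against 0.231 ± 0.163 CPM per kb (n = 8), and Bcl2 was above Id3 in B16-IFNA9 tumors, at 4.62 ± 0.70 against 4.44 ± 1.67 CPM per kb (n = 6). Both pairs overlapped within 1 SD.

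Markers of T cells, and in part those of other leukocytes and of keratinocytes, moved with the genes that rose. The summed level of the 18 T cell markers ran from 13.8 to 86.8 CPM in B16-GFP, 164 to 340 CPM in B16-IFNA4 and 76.1 to 254 CPM in B16-IFNA9 tumors, and 18 and 17 of the 18 rose against B16-GFP. The 8 NK cell markers summed to 5.27 to 30.9 CPM, 118 to 383 CPM and 64.4 to 229 CPM in the same order, and 8 of 8 rose in both comparisons. The 9 B cell markers, of which 6 to 9 had counts in each tumor, summed to 16.9 to 99.3 CPM, 60.9 to 204 CPM and 55.7 to 116 CPM, and of the 5 that were tested 4 rose in B16-IFNA4 and 2 in B16-IFNA9 tumors. The 4 myeloid markers, all detected in every tumor, summed to 107 to 540 CPM, 431 to 758 CPM and 366 to 636 CPM, and 3 of 4 rose in both comparisons. The 8 plasmacytoid dendritic cell markers summed to 48.6 to 219 CPM, 102 to 221 CPM and 53.7 to 212 CPM. Of the 7 tested, 5 rose in B16-IFNA4 tumors, and 3 rose and 1 fell in B16-IFNA9 tumors. Keratinocyte markers rose too, 7 of 10 in B16-IFNA4 and 3 of 10 in B16-IFNA9 tumors, and 0 fell. Among all genes 31.3% and 26.9% rose. The part of these cell types in the rises was not tested. In whole tumors, fewer cells of a type and less RNA per cell cannot be told apart. To set the genes against the T cell content, each was expressed relative to the mean log2 CPM of Cd3d, Cd3e and Cd3g, subunits of the T cell receptor complex.

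Relative to these Cd3 genes, Tcf7 stood at 2.44 ± 0.68 log2 units in B16-GFP, 1.27 ± 0.23 in B16-IFNA4 and 1.28 ± 0.35 in B16-IFNA9 tumors (SD, n = 10), so this relative level was lower where its level in the tumor was higher. Slamf6 stood at -0.73 ± 0.65, -0.88 ± 0.33 and -1.21 ± 0.38 log2 units, and Lef1 at 0.08 ± 1.84, -1.07 ± 0.22 and -0.79 ± 0.69 log2 units. Without the hair keratin tumors Lef1 stood at -0.73 ± 0.57 in B16-GFP (n = 8) and -1.17 ± 0.44 log2 units in B16-IFNA9 tumors (n = 6), so the B16-IFNA9 mean was no longer above that of B16-IFNA4. Cd27 went the other way, from -1.67 ± 0.85 in B16-GFP to -0.49 ± 0.31 in B16-IFNA4 and -0.98 ± 0.46 log2 units in B16-IFNA9 tumors. Id3 stood at 2.65, -0.13 and -0.10 log2 units, and Bcl2 at 4.12, 1.61 and 2.20 log2 units. No test was made of these relative levels. They are not levels per T cell, because none of the 6 genes is confined to T cells. They have a low-count prior of 2, which raises the genes with few counts in B16-GFP tumors.

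**Figure D4:**
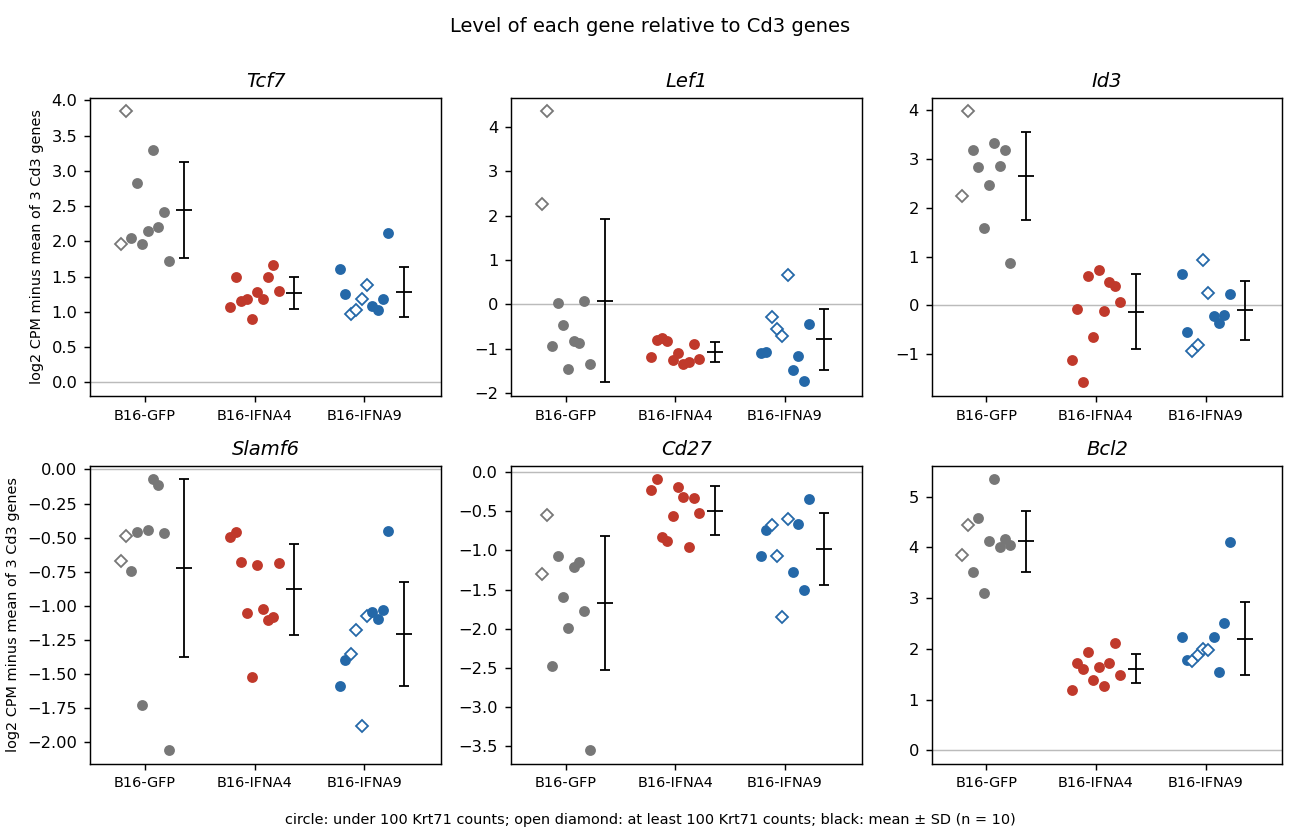
Log2 CPM of each gene minus the mean log2 CPM of Cd3d, Cd3e and Cd3g, with 1 point per tumor and the mean ± SD of each type in black (n = 10). Open diamonds are hair keratin tumors. Cd27 is the gene whose mean is higher in both interferon-expressing types than in B16-GFP, and the means of the other 5 genes are lower in both.

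With the Cd3 level as a covariate in the fit of all genes, 0 of the 6 genes were called in any comparison. Over all genes this fit called 3.39%, 5.68% and 11.9% in the comparisons of B16-IFNA4 with B16-GFP, B16-IFNA9 with B16-GFP and B16-IFNA9 with B16-IFNA4. The log2 fold change of Cd27 was 1.48 (SE 0.54, edgeR adjusted p = 0.16) in B16-IFNA4 and 0.96 (SE 0.47, edgeR adjusted p = 0.256) in B16-IFNA9 tumors against B16-GFP. Slamf6 had 0.75 (SE 0.44, edgeR adjusted p = 0.494) and 0.25 (SE 0.38, edgeR adjusted p = 0.766). Tcf7 had 0.36 (SE 0.34, edgeR adjusted p = 0.742) and 0.11 (SE 0.30, edgeR adjusted p = 0.875). All 3 Cd3 genes themselves rose against B16-GFP, and the SE of Tcf7 in B16-IFNA4 tumors was 0.34 with the covariate against 0.17 without it. The fit does not show that the genes were equal per T cell.

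**Figure D5:**
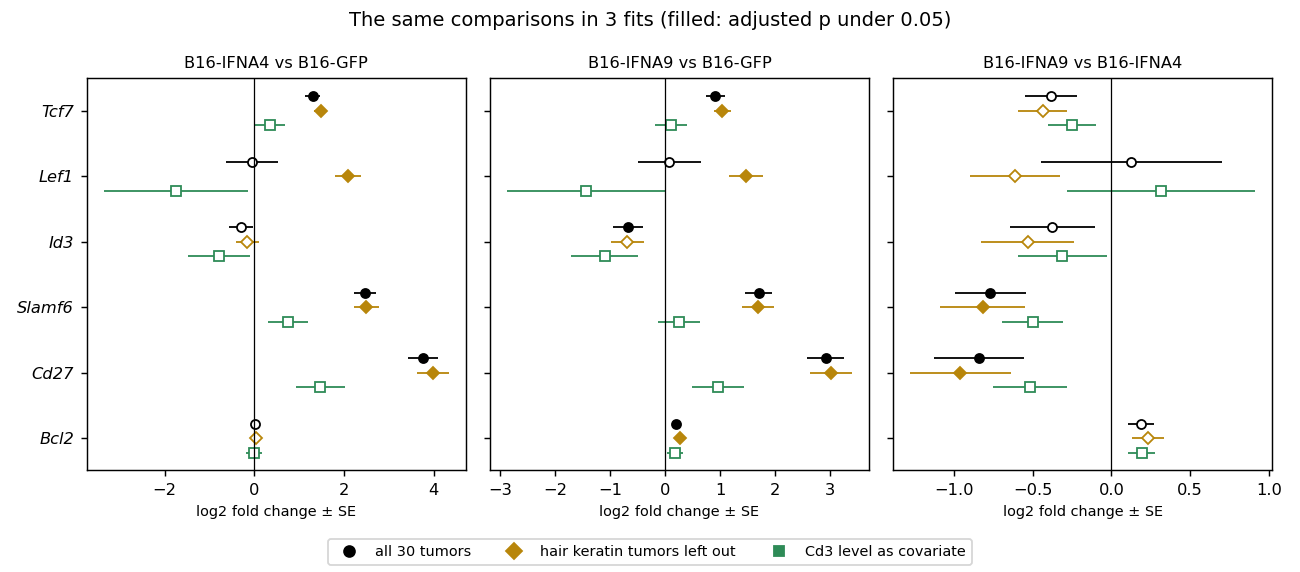
Log2 fold change ± SE of each gene in the 3 comparisons, from all 30 tumors, without the 6 hair keratin tumors and with the Cd3 level as a covariate. Filled symbols had an adjusted p under 0.05. Leaving out the hair keratin tumors moves Lef1 from near 0 to 2.09 and 1.48 against B16-GFP, and with the Cd3 covariate no symbol is filled.

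Further genes of stem-like and memory T cells, listed by name, mostly moved with Cd27 and Slamf6. Of 19 tested, 14 rose and 2 fell in B16-IFNA4 compared with B16-GFP tumors, with a median log2 fold change of 1.08. In B16-IFNA9 tumors 13 rose and 3 fell, with a median of 0.66. Among all genes 31.3% rose and 34.1% fell in the first comparison, and 26.9% and 28.9% in the second. Cd28, the main costimulatory receptor of T cells, rose by 3.54 and 2.78 on the log2 scale. Xcl1, a chemokine that attracts cross-presenting dendritic cells, rose by 3.28 and 2.93, and Nsg2 by 4.09 and 2.83. The genes that fell in both comparisons were Igfbp4 (-0.75 and -0.59) and S1pr1 (-0.35 and -0.77), a receptor through which lymphocytes leave tissue and which endothelial cells also carry, and Klf2, a regulator of S1pr1, also fell in the comparison of B16-IFNA9 with B16-GFP (-0.49). Between B16-IFNA9 and B16-IFNA4 tumors 0 rose and 9 fell, among them Nsg2 (-1.26), Tnfsf8 (-0.91) and Satb1 (-0.79). There 10.5% of all genes rose and 7.25% fell.

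Effector and exhaustion genes, the states that stem-like cells give rise to, also rose. Of 14 tested, 14 rose in B16-IFNA4 and 13 in B16-IFNA9 tumors against B16-GFP, with medians of 2.32 and 1.7 on the log2 scale. The shares of all genes that rose were 31.3% and 26.9%. Tbx21, the transcription factor T-bet, rose by 4.35 and 3.43, Nkg7, a cytotoxic granule protein, by 3.63 and 3.00, and Eomes, a T-box factor of memory and exhausted cells, by 3.41 and 3.03. NK cells carry Tbx21, Nkg7 and Eomes too, and the NK cell markers had medians of 4.10 and 3.40 in the same comparisons. Between the interferon-expressing types 0 rose and 5 fell, where 10.5% of all genes rose and 7.25% fell. Tox, a regulator of exhaustion, had 0.50 ± 0.25 CPM in B16-GFP, 3.14 ± 1.38 CPM in B16-IFNA4 and 2.92 ± 1.06 CPM in B16-IFNA9 tumors.

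The SLAM family and its adaptors rose together. All 11 tested genes other than Slamf6 rose in both comparisons with B16-GFP, with medians of 2.16 and 2.00 on the log2 scale. In these comparisons 31.3% and 26.9% of all genes rose. In B16-IFNA9 compared with B16-IFNA4 tumors 5 of the 11 fell, as did 7.25% of all genes. Slamf7, a receptor of NK and myeloid cells, rose from 12.8 ± 5.25 CPM to 157 ± 46.8 CPM and 84.1 ± 23.7 CPM. Sh2d1a, the adaptor SAP through which Slamf6 signals, rose by 3.87 and 3.16 on the log2 scale, and Sh2d1b2, a related adaptor of NK cells, by 4.49 and 3.61. Sh2d1b2 lies beside the similar gene Sh2d1b1, so the split of reads between them is uncertain. Slamf9 rose by 3.26 and 2.19.

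Genes of costimulation and signalling around Cd27 rose in part. Of 8 tested, 6 rose in each comparison with B16-GFP, where 31.3% of all genes rose in B16-IFNA4 and 26.9% in B16-IFNA9 tumors. Cd28, counted in this list too, and Icos, another costimulatory receptor (log2 fold changes 2.6 and 2.5), rose most. Traf5, which binds the tail of Cd27, rose by 0.95 and 0.55, and Map3k14, the kinase NIK of the alternative NF-κB pathway, by 0.71 and 0.41. Traf2, another adaptor of Cd27, was not called, at 0.10 (edgeR adjusted p = 0.446) and -0.12 (edgeR adjusted p = 0.374), and Tnfrsf9 was not called either.

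Genes of the Wnt pathway, in which TCF1 and LEF1 act, were mixed. Of 13 tested, 5 rose and 2 fell in B16-IFNA4 and 6 rose and 2 fell in B16-IFNA9 compared with B16-GFP tumors, where 31.3% and 26.9% of all genes rose. Axin2, a target and inhibitor of the pathway, rose by 0.71 and 0.73 on the log2 scale, and Rnf43, which removes Wnt receptors, by 0.99 and 0.95. Ctnnb1, β-catenin itself, dropped by 0.99 and 0.72, and Pygo2, a β-catenin cofactor, by 0.29 and 0.34. Ctnnb1 was the most abundant of these genes, at 936 ± 186 CPM in B16-GFP tumors, where melanocyte markers were also highest. The melanocyte markers, 9 of 9 detected in every tumor, summed to 8381 to 27810 CPM in B16-GFP, 2596 to 4180 CPM in B16-IFNA4 and 3882 to 10064 CPM in B16-IFNA9 tumors, and their part in the Ctnnb1 difference was not tested.

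In the Bcl2 family, 8 of 13 tested genes rose and 3 fell in B16-IFNA4 compared with B16-GFP tumors, while Bcl2 itself was not called. In B16-IFNA9 tumors 6 rose and 3 fell. Over all genes 31.3% rose and 34.1% fell in B16-IFNA4 tumors, and 26.9% rose and 28.9% fell in B16-IFNA9 tumors. Bcl2l11, which encodes the death-promoting protein BIM, rose from 15.8 ± 3.05 CPM to 39.9 ± 5.88 CPM and 30.1 ± 4.20 CPM. The survival genes Bcl2a1b and Bcl2a1d, near-identical copies whose reads the counting could split, rose by 1.63 and 1.60 on the log2 scale in B16-IFNA4 and by 1.15 and 1.24 in B16-IFNA9 tumors. Mcl1, another survival gene, rose by 0.43 in B16-IFNA4 tumors (edgeR adjusted p = 8.29e-05) and had 0.07 in B16-IFNA9 tumors (edgeR adjusted p = 0.477). The genes that fell in both comparisons were Bax and Bad, with Bak1 in B16-IFNA4 and Bok in B16-IFNA9 tumors. All 4 promote cell death, as do Bid (0.57 and 0.61) and Bmf (0.27 and 0.37), which rose in both comparisons.

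Around Id3, the E protein genes and genes of BMP and SMAD signalling were mixed. Of 10 tested, 2 rose and 2 fell in B16-IFNA4 and 1 rose and 3 fell in B16-IFNA9 compared with B16-GFP tumors, no larger a share of rises than among all genes. Tcf3, which encodes the E protein E2A, dropped by 0.69 and 0.68 on the log2 scale, while Tcf4, the E protein of plasmacytoid dendritic cells among others, rose by 0.33 and 0.23. Id1, the relative of Id3, was not called, at -0.03 (edgeR adjusted p = 0.887) and -0.39 (edgeR adjusted p = 0.0891).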

How the data were processed

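Stranded mRNA libraries of 30 whole tumors were read from one end over 50 bases. The submitters' processing notes name FastQC 0.11.3, HISAT2 2.0.4 and the build mm10, whereas the study's methods name mm11, with counting by summarizeOverlaps. The annotation, overlap mode and strand setting are not given in the sources used here, so overlapping and antisense genes are uncertain. The deposited values are raw counts per gene and tumor, which the authors did not normalize. Of 39676 identifiers, 39495 were found in GENCODE M21 (GRCm38), which gave symbols and exon lengths, and 181 were not. Listed genes without a row are not analysed here.

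The 10 tumors of each type, grouped by the sample titles, were compared in 1 quasi-likelihood fit of all 30 tumors in R 4.3.3 with edgeR 4.0.16, after TMM scaling, on the 15926 genes averaging 10 or more counts, and p-values were adjusted by Benjamini-Hochberg over all of them. The p-values set each difference between types against the spread between these tumors, estimated from all 30. Levels are TMM-scaled CPM, and log2 CPM took a prior count of 2. Lengths for CPM per kb are merged exons. Members and lists were chosen with earlier results of these data known. Named besides the members were, per list, the called genes with the largest change in a comparison, and per member the 3 genes most correlated with it after centring within type. Some genes that this rule takes are not reported here. Tox, Id1, Mcl1, Traf2, Tnfrsf9, Map3k14, Klf2, Bak1, Bok, Bid and Bmf were named after their values were seen. The fit was tested on simulated data.

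Alternatives were DESeq2 1.42.0 or its size factors, library totals, filterByExpr, no filter, the 20 tumors compared, the replicate number as a block, leaving out each tumor, B16-GFP tumors 1 and 2 left out, the Cd3 level as a covariate and a change of at least 1.5-fold. Leaving out the 6 tumors with at least 100 Krt71 counts and the hair follicle level as a covariate were chosen after seeing the data. Promoter windows came from RefSeq (GRCm38.p6). Plots were drawn with Python and matplotlib.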

Additional observations from a re-analysis of the deposited data

How the results depend on the processing

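The rises of Cd27, Slamf6 and Tcf7 against B16-GFP were called in all 30 fits that left out 1 tumor and in every other alternative except the Cd3 covariate, apart from Tcf7 in B16-IFNA9 tumors, which also missed a change of at least 1.5-fold. With the Cd3 covariate 0 members were called in each comparison. With a change of at least 1.5-fold, 2 were called in B16-IFNA9 against B16-GFP and 0 in B16-IFNA9 against B16-IFNA4. That last comparison gave 1 call with library totals, 1 without a low-count filter and 4 with the hair follicle covariate. Over all genes it gave 2946 calls with library totals and 2510 without the filter, against 2833 with TMM scaling and the filter. With the hair follicle covariate it called 20.1% of all genes. Counts over all genes for the 1.5-fold fit and the fits leaving out 1 tumor are not given here. Leaving out 1 tumor gave 3 to 5 calls in B16-IFNA9 against B16-GFP, 1 to 3 in B16-IFNA9 against B16-IFNA4 and 3 to 4 in B16-IFNA4 against B16-GFP. Library totals moved the median log2 fold change of all genes in B16-IFNA9 against B16-GFP from 0.00 to 0.10, and the share of higher among called genes from 48.2% to 58.3%.

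Lef1 changed sign most. Its log2 fold change in B16-IFNA4 against B16-GFP was 1.05 with a replicate block, 2.09 without B16-GFP tumors 1 and 2, 2.09 without the hair keratin tumors and 2.01 with the hair follicle covariate, and -0.19 to 1.12 leaving out 1 tumor. In B16-IFNA9 against B16-GFP it was -1.43 with the Cd3 covariate and -0.21 to 1.25 leaving out 1 tumor. Among the fits leaving out 1 tumor it passed the test only without B16-GFP tumor 2. It also passed without B16-GFP tumors 1 and 2 (2.24, edgeR adjusted p = 1.01e-05), without the hair keratin tumors (1.48) and with the hair follicle covariate (1.19). In B16-IFNA9 against B16-IFNA4 it was -0.61 without the hair keratin tumors, -0.81 with the hair follicle covariate and -0.16 to 0.25 leaving out 1 tumor. Bcl2 in B16-IFNA4 against B16-GFP was -0.0032 with filterByExpr, -0.013 with the Cd3 covariate and -0.021 to 0.066 leaving out 1 tumor. The cause of these changes was not tested. Tumors sharing a number did not deviate together (median correlations -0.03, -0.095 and -0.005), so the replicate block pairs tumors by number alone.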
